A study of Mus musculus with 2 samples.

Results

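Amino acid transporters were taken as the genes of 7 solute carrier families, Slc1, Slc3, Slc6, Slc7, Slc36, Slc38 and Slc43, chosen by symbol. Such symbols with the ending os were also taken, which added Slc7a6os. Of 46 such rows in the count table, 34 reached a sum of at least 50 counts and count as measured. They stood among 13534 measured genes and 19674 rows in all. The cells were MDFB, a wild-type mouse fibroblast line from skin, sequenced as 1 library given vehicle and 1 library given the inflammatory cytokine IL-17A. No other allele or agent is named for either group, no dose or time is given, and both libraries carry the batch label 1. Total counts were 24427027 with vehicle and 23559416 with IL-17A. With 1 library per group there was no replicate and no test, so each ratio describes these libraries, and each interval covers counting error only.

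Amino acids are charged or polar and cross membranes through carrier proteins, which either let them move down their own gradient, couple them to sodium or protons, or exchange one amino acid for another. Several Slc7 proteins are light chains that reach the surface only when joined to the heavy chain Slc3a2, also known as CD98. Slc1 proteins carry glutamate or small neutral amino acids, and Slc38 proteins carry glutamine and other neutral ones with sodium. Some Slc36 proteins use protons, and Slc6 proteins use sodium and chloride. In fibroblasts these carriers supply glycine and proline for collagen, glutamine as a fuel, cystine for glutathione, and arginine for nitric oxide and polyamines.

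All 12 fibroblast markers were measured in both libraries, with a summed level of 58411 CPM with vehicle and 44174 CPM with IL-17A, where CPM is the count scaled to the library size after TMM adjustment. Of these 12, 2 were at least 2-fold higher with IL-17A and 0 lower. As shares these are 16.7% and 0%, beside 5.19% and 3.69% over all measured genes. On the log2 scale 6 stood above and 6 below 0, with a median of -0.03. Keratinocyte and epithelial markers summed to 3.36 and 4.48 CPM, with Krt1 and Krt15 at 0 in both libraries. Lymphoid markers summed to 0.280 CPM with vehicle and to 0 with IL-17A, where Cd3e, Cd3g and Nkg7 were at 0 in both, and endothelial markers to 6.96 and 6.52 CPM. Myeloid markers summed to 235 and 311 CPM, none of the 12 at 0. Of the 11 measured, 0 were past 2-fold, beside 8.88% over all measured genes. Lyz2 alone was at 153 and 227 CPM. The other 11, with Fcgr1, below the minimum of 50 counts in sum, at 1.12 and 0.261 CPM among them, summed to 81.5 and 83.4 CPM, 5 of them lower with IL-17A, such as Cd68 at 10.8 and 7.30 CPM, and 6 higher, such as Cd14 at 8.04 and 15.6 CPM. Mural cell markers summed to 207 and 66.8 CPM, with 5 of 6 measured at least 2-fold lower with IL-17A and none of the 7 at 0. As a share this is 83.3% lower, beside 3.69% over all measured genes. Melanocyte and Schwann cell markers summed to 30.7 and 49.0 CPM, with Tyr at 0 in both. In such bulk libraries fewer cells of a type and less RNA per cell cannot be told apart, and the part of other cell types in the carrier differences was not tested.

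Among the 34 measured genes, 4 were at least 2-fold higher with IL-17A and 4 were at least 2-fold lower, beside 5.19% higher and 3.69% lower over all measured genes. As shares of the 34 these are 11.8% each, and in either direction the share over all measured genes was 8.88%. The higher genes were Slc36a2, Slc7a2, Slc43a2 and Slc7a7, and the lower were Slc1a6, Slc7a8, Slc7a5 and Slc38a4. The other 26 lay within 2-fold. The median log2 ratio, IL-17A over vehicle, was 0.04 over the 34 genes and 0.00 over all measured genes, and 18 of the 34 stood above 0. The summed level of the 34 genes was 3074 CPM with vehicle and 2912 CPM with IL-17A. The set as a whole thus differed little between the libraries, while single members stood far to either side. Counting intervals of 12 genes lay wholly above a ratio of 1 and those of another 12 wholly below it, 35.3% of the 34 in each direction. Over all measured genes these shares were 28.7% and 26.5%.

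**Figure D1:**
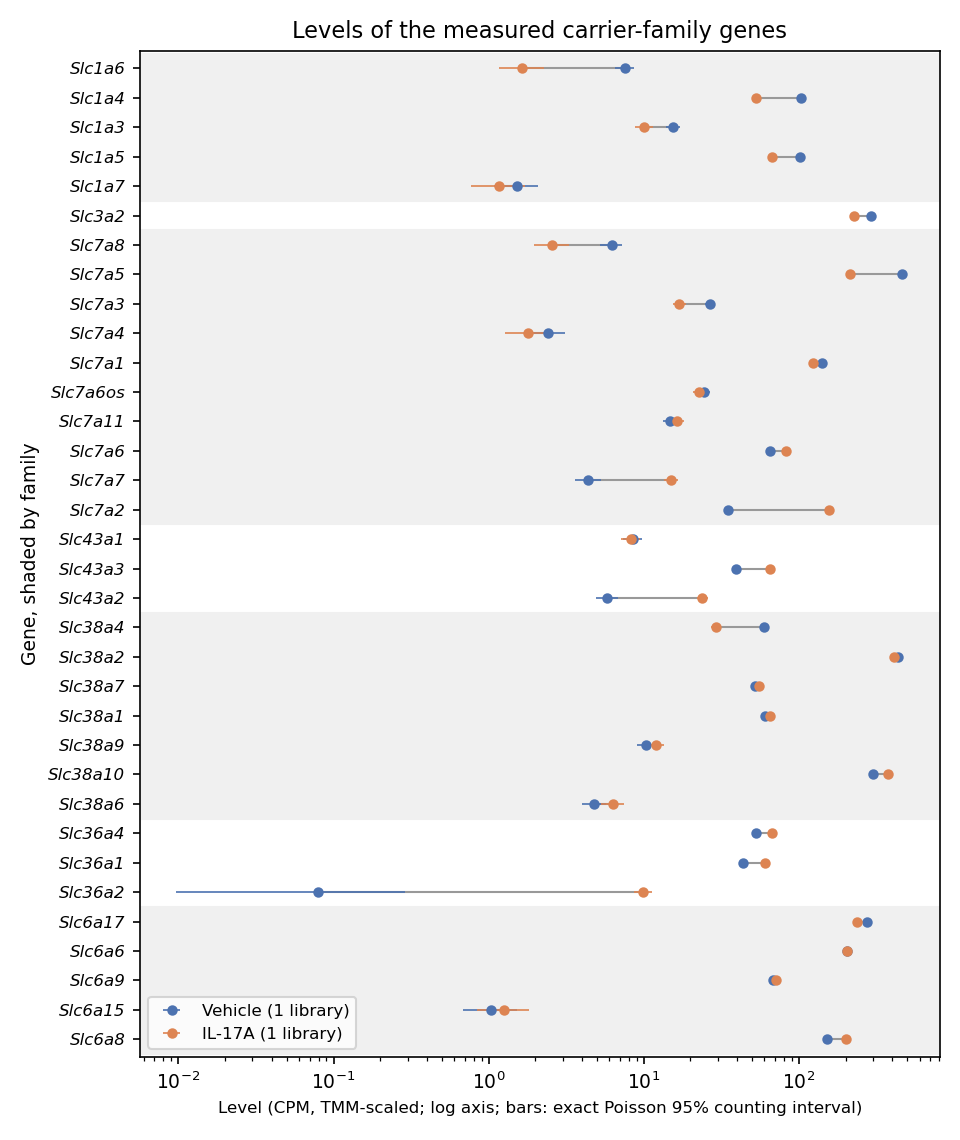
Level of each measured gene in CPM on a log axis, vehicle in blue and IL-17A in orange, 1 library each, with exact Poisson 95% counting intervals and families shaded in turn. The widest gap is that of Slc36a2, from 0.0800 to 9.95 CPM, and most other genes lie close together in both libraries.

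**Figure D2:**
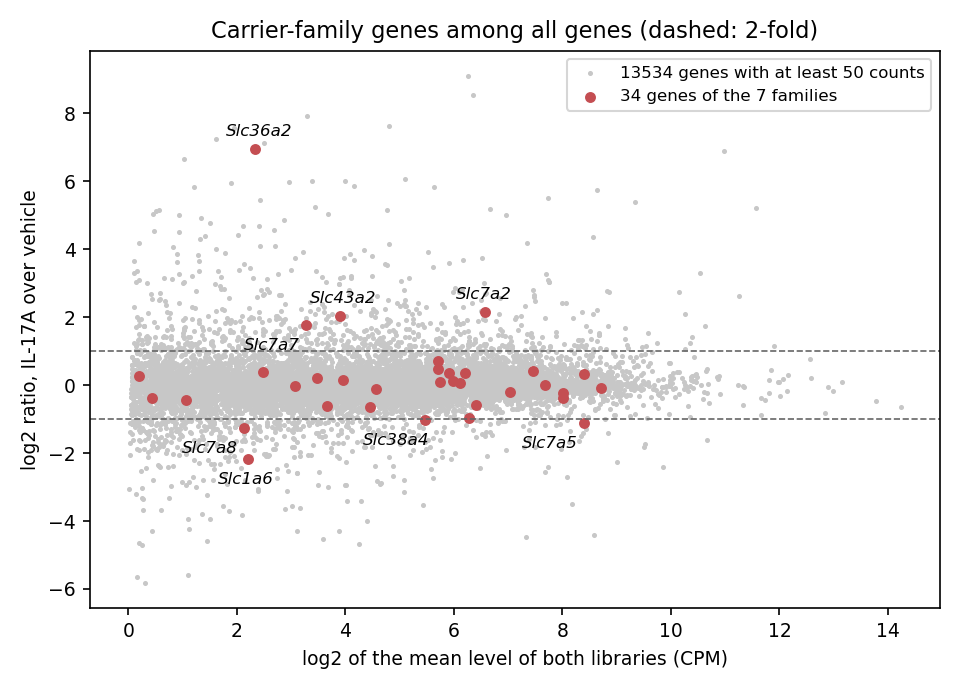
Log2 ratio of IL-17A over vehicle against the log2 mean level of both libraries, for all 13534 measured genes in grey and the 34 genes of the carrier families in red, with dashed lines at 2-fold. The 8 labelled genes lie past 2-fold, 4 on each side.

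Cationic carriers bring arginine, lysine and ornithine into the cell, and here their makeup differed most through Slc7a2. Slc7a2 encodes CAT-2, the carrier that in macrophages feeds arginine to the inducible nitric oxide synthase. Its counts of 875 and 3604 for vehicle and IL-17A were levels of 35.0 and 157 CPM, and it was 4.48-fold higher (95% counting interval 4.16 to 4.83). Slc7a1, which encodes the widely expressed carrier CAT-1, had 3504 and 2825 counts and stood 1.14-fold lower (95% counting interval 1.09 to 1.20). Slc7a3, which encodes CAT-3, had 667 and 391 counts, 26.7 and 17.0 CPM, and stood 1.57-fold lower (95% counting interval 1.38 to 1.78). So the inducible carrier was the higher of the group with IL-17A, and its relatives were level or lower.

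The change in makeup can be read as shares of the counts of these 3 genes within a library. Slc7a2 held 17.3% with vehicle (Clopper-Pearson 95% interval 16.3 to 18.4) and 52.8% with IL-17A (51.7 to 54.0). The share of Slc7a1 was 69.4% and 41.4%, and that of Slc7a3 was 13.2% and 5.73%. Set per kilobase of the longest annotated transcript, which allows levels of different genes to be compared, Slc7a1 stood at 19.5 and 17.1 CPM per kb, Slc7a2 at 4.42 and 19.8, and Slc7a3 at 9.70 and 6.18. Slc7a2 was the highest of the 3 with IL-17A by transcript length and by coding length. With vehicle it ranked below Slc7a3 by transcript length and above it by coding length, at 17.3 against 14.4 CPM per coding kb. Of the summed level per kb of the 3 genes, Slc7a2 held 13.1% with vehicle and 46.0% with IL-17A. Count shares favour long transcripts, so its count share of 52.8% is higher than its share per kb. Summed counts of the 3 genes were 5046 and 6820, a 1.47-fold higher total with IL-17A. Per kilobase of transcript the sum was 33.6 and 43.1 CPM per kb. Slc7a4, a relative in sequence, was near the count minimum with 60 and 41 counts and stood at -0.43 on the log2 scale (95% counting interval -1.04 to 0.17).

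In GENCODE release M21 on GRCm38, the build also called mm10, Slc7a2 lies on chromosome 8 at 40862396 to 40922308 on the plus strand and has 5 annotated transcripts. Splice forms with different affinity for arginine, known as CAT-2A and CAT-2B, share this gene, and counts per gene do not separate them.

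Among the light chains of Slc3a2, the largest was lower and a minor one was higher. Slc7a5 encodes LAT1, which exchanges glutamine for leucine and other large neutral amino acids. It went from 11586 counts with vehicle to 4901 with IL-17A, or from 463 to 213 CPM, and was 2.18-fold lower (95% counting interval 2.10 to 2.25). Slc7a8, which encodes the related LAT2, had 155 and 59 counts, 6.20 and 2.56 CPM, and was 2.42-fold lower (95% counting interval 1.78 to 3.32). Slc7a7 encodes y+LAT1, which exports cationic amino acids against neutral ones. It had 110 and 346 counts, 4.40 and 15.0 CPM, and was 3.42-fold higher (95% counting interval 2.75 to 4.28). Macrophages also make y+LAT1. The myeloid markers summed to 235 and 311 CPM here, and to 81.5 and 83.4 CPM without Lyz2. The part of myeloid cells in this result was not tested.

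The other light chains and the heavy chain differed less. Slc7a6, which encodes y+LAT2, an exchanger of the same kind, had 1627 and 1901 counts and stood 1.27-fold higher (95% counting interval 1.19 to 1.36). Slc7a11 encodes xCT, the light chain that trades glutamate for cystine, and had 367 and 378 counts, a log2 ratio of 0.16 with an interval of -0.05 to 0.37 that spanned 0. Slc3a2 itself had 7245 and 5178 counts, 290 and 225 CPM, and stood 1.29-fold lower (95% counting interval 1.24 to 1.33). The cystine carrier was therefore the light chain closest to level, and the heavy chain was lower by less than Slc7a5.

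Of the counts of these 5 light chains, Slc7a5 held 83.7% with vehicle (Clopper-Pearson 95% interval 83.1 to 84.3) and 64.6% with IL-17A (63.5 to 65.7). Slc7a6 held 11.8% and 25.1%, and Slc7a7 held 0.795% and 4.56%. Per kilobase of transcript, the 5 light chains summed to 154 CPM per kb with vehicle and 91.6 with IL-17A. Slc3a2 stood at 103 and 80.0 CPM per kb, which made the heavy chain 0.668 of the light-chain sum with vehicle and 0.873 with IL-17A. These ratios depend on the length used. By coding length Slc3a2 stood at 171 and 133 CPM per coding kb, and Slc7a5 alone at 302 and 139. Transcript levels say nothing of how many pairs form at the surface.

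**Figure D3:**
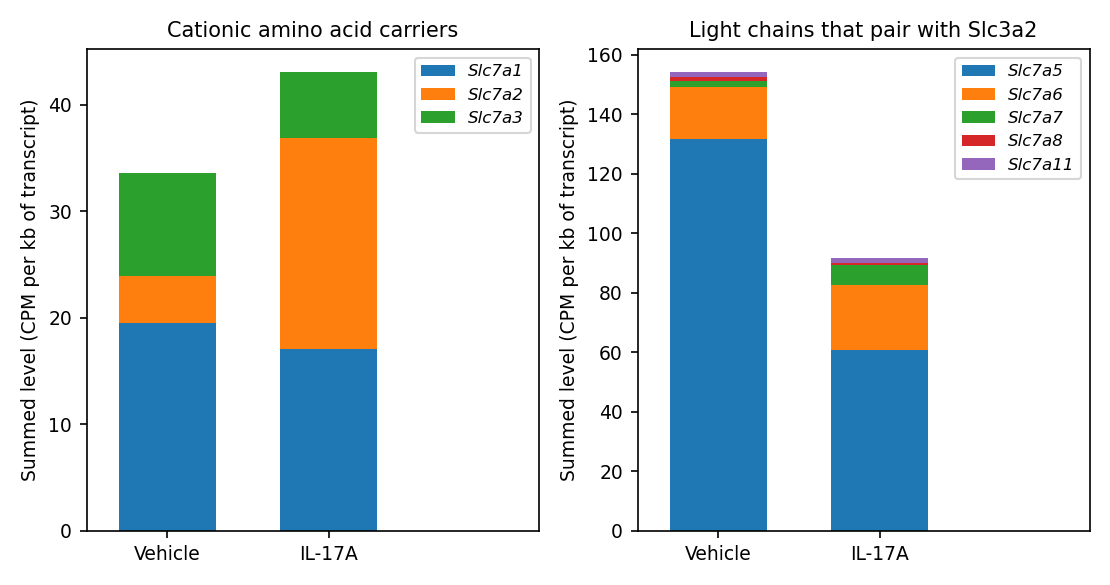
Summed level in CPM per kb of the longest annotated transcript, stacked by gene, for the cationic carriers (left) and the light chains of Slc3a2 (right) in the vehicle and the IL-17A library, 1 library each. Slc7a2 goes from 4.42 to 19.8 CPM per kb on the left, and Slc7a5 from 132 to 60.6 on the right.

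Large neutral amino acids also pass through Slc43 carriers, which need no heavy chain. Slc43a2, which encodes LAT4, had 145 and 550 counts, 5.80 and 23.9 CPM, and was 4.12-fold higher (95% counting interval 3.43 to 4.99). Slc43a1, which encodes LAT3, had 212 and 190 counts, with a log2 ratio of -0.04 and an interval of -0.33 to 0.25. Slc43a3, whose product carries purine bases rather than amino acids, had 982 and 1489 counts, 39.3 and 64.7 CPM, and stood 1.65-fold higher (95% counting interval 1.52 to 1.79). LAT4 and LAT1 transcripts thus went opposite ways. The sum over Slc7a5, Slc7a8, Slc43a1 and Slc43a2 was 12098 and 5700 counts, 1.95-fold lower with IL-17A, and Slc7a5 held 95.8% and 86.0% of it. Per kilobase of transcript the sum was 136 and 66.6 CPM per kb, of which Slc7a5 held 96.7% and 90.9%.

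In the Slc36 family, Slc36a2 had the largest ratio of all 34 genes. It encodes PAT2, which carries glycine, proline and alanine and is used as a surface marker of brown and beige adipocytes. Its counts were 2 in the vehicle library and 229 in the other, and it was 124-fold higher with a wide 95% counting interval of 34.1 to 1030. With a prior count of 2 in each library its log2 ratio was 5.94 in place of 6.96. Its level of 9.95 CPM with IL-17A was 4.10 CPM per kb, rank 23 of the 34 genes by this measure. Its neighbour on chromosome 11, Slc36a1, encodes the lysosomal carrier PAT1 and had 1091 and 1390 counts, 0.47 on the log2 scale (95% counting interval 0.35 to 0.59). Slc36a4, which encodes PAT4, had 1327 and 1550 counts and stood 1.27-fold higher. Slc36a2 lies at 55158470 to 55185077 on the minus strand and Slc36a1 at 55204350 to 55236330 on the plus strand, and no annotated gene overlaps either of them in GENCODE M21.

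All 5 measured Slc1 genes stood below 0 on the log2 scale, with a family median of -0.62 and 1 past 2-fold. Slc1a6 encodes the glutamate carrier EAAT4, known from Purkinje cells of the cerebellum. It had 188 and 38 counts, 7.52 and 1.65 CPM, and was 4.55-fold lower (95% counting interval 3.20 to 6.63). Slc1a3, which encodes the glutamate carrier GLAST, had 385 and 231 counts, 15.39 and 10.04 CPM, and stood 1.53-fold lower (95% counting interval 1.30 to 1.81). Slc1a7, which encodes EAAT5, had 38 and 27 counts, with a log2 interval of -1.14 to 0.38. Together the glutamate carriers had 611 and 296 counts, 1.90-fold lower with IL-17A.

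The small neutral amino acid exchangers of this family were lower as well. Slc1a4, which encodes the alanine, serine and cysteine exchanger ASCT1, had 2586 and 1212 counts, 103 and 52.7 CPM, and stood 1.96-fold lower (95% counting interval 1.83 to 2.10), just inside 2-fold. Scaling by total counts or by upper quartile put it past 2-fold and made 5 lower genes. Slc1a5 encodes ASCT2, which brings in glutamine. It had 2546 and 1554 counts, 102 and 67.5 CPM, and stood 1.51-fold lower (95% counting interval 1.41 to 1.61). ASCT2, LAT1 and CD98 are often described as working in series, glutamine entering through the first and leaving through the others, and transcripts of all 3 were below 0 on the log2 scale, by -0.59 for Slc1a5, -1.12 for Slc7a5 and -0.36 for Slc3a2.

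Of the 7 measured Slc38 genes, 1 was lower and 6 were within 2-fold, with a family median of 0.11. Slc38a2 encodes SNAT2, the system A carrier that starved cells make more of, and had 10896 and 9377 counts, 436 and 408 CPM, a log2 ratio of -0.10 (95% counting interval -0.14 to -0.06). Slc38a4, which encodes SNAT4 and is imprinted in mice, had 1483 and 672 counts, 59.3 and 29.2 CPM, and was 2.03-fold lower (95% counting interval 1.85 to 2.23), so its interval reached inside 2-fold. Slc38a1, which encodes the glutamine carrier SNAT1, had 1510 and 1504 counts and stood at 0.11. The genes Slc38a1, Slc38a2 and Slc38a4 lie side by side on chromosome 15, from 96571418 to 97055956, all on the minus strand. Of these neighbours, Slc38a4 alone was past 2-fold.

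Lysosomal and other Slc38 genes were close to level. Slc38a7, whose product exports glutamine and asparagine from lysosomes, stood at 0.10, and Slc38a9, the lysosomal arginine sensor upstream of the growth kinase mTORC1, at 0.21 with an interval of -0.04 to 0.46. Slc38a10 had 7507 and 8667 counts, 300.2 and 377 CPM, and stood at 0.33 (95% counting interval 0.28 to 0.37), and Slc38a6 at 0.39. The Slc6 family had 0 of 5 genes past 2-fold. Slc6a8, the creatine carrier, had 3782 and 4647 counts, 151 and 202 CPM, and stood at 0.42 (95% counting interval 0.36 to 0.48). Slc6a17, known from synaptic vesicles, had 6924 and 5475 counts, 277 and 238 CPM, and stood at -0.22 (95% counting interval -0.27 to -0.17). Slc6a6, the taurine carrier, and Slc6a9, the glycine carrier GlyT1, stood at 0.01 and 0.07, and Slc6a15 at 0.28 with 26 and 29 counts. Slc7a6os is named for its place beside Slc7a6 on the opposite strand and is not a carrier. It stood at -0.11, and the annotated genes do not overlap.

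Per kilobase of transcript, the highest of the 34 genes with vehicle was Slc7a5 at 132 CPM per kb, then Slc3a2 at 103, Slc38a2 at 71.2, Slc38a10 at 65.6, Slc6a17 at 43.8 and Slc6a8 at 38.1. With IL-17A the same 6 genes held the first 6 places, led by Slc38a10 at 82.3, then Slc3a2 at 80.0, Slc38a2 at 66.6, Slc7a5 at 60.6, Slc6a8 at 50.9 and Slc6a17 at 37.6. Slc7a5 thus went from place 1 to place 4. The order depended on the length used. By coding length in the same annotation Slc7a5 led with vehicle and Slc38a2 with IL-17A, where Slc7a5 was in place 2 and Slc38a10 in place 4. Slc6a6 was then in place 5 in both libraries and Slc6a8 in place 7.

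**Figure D4:**
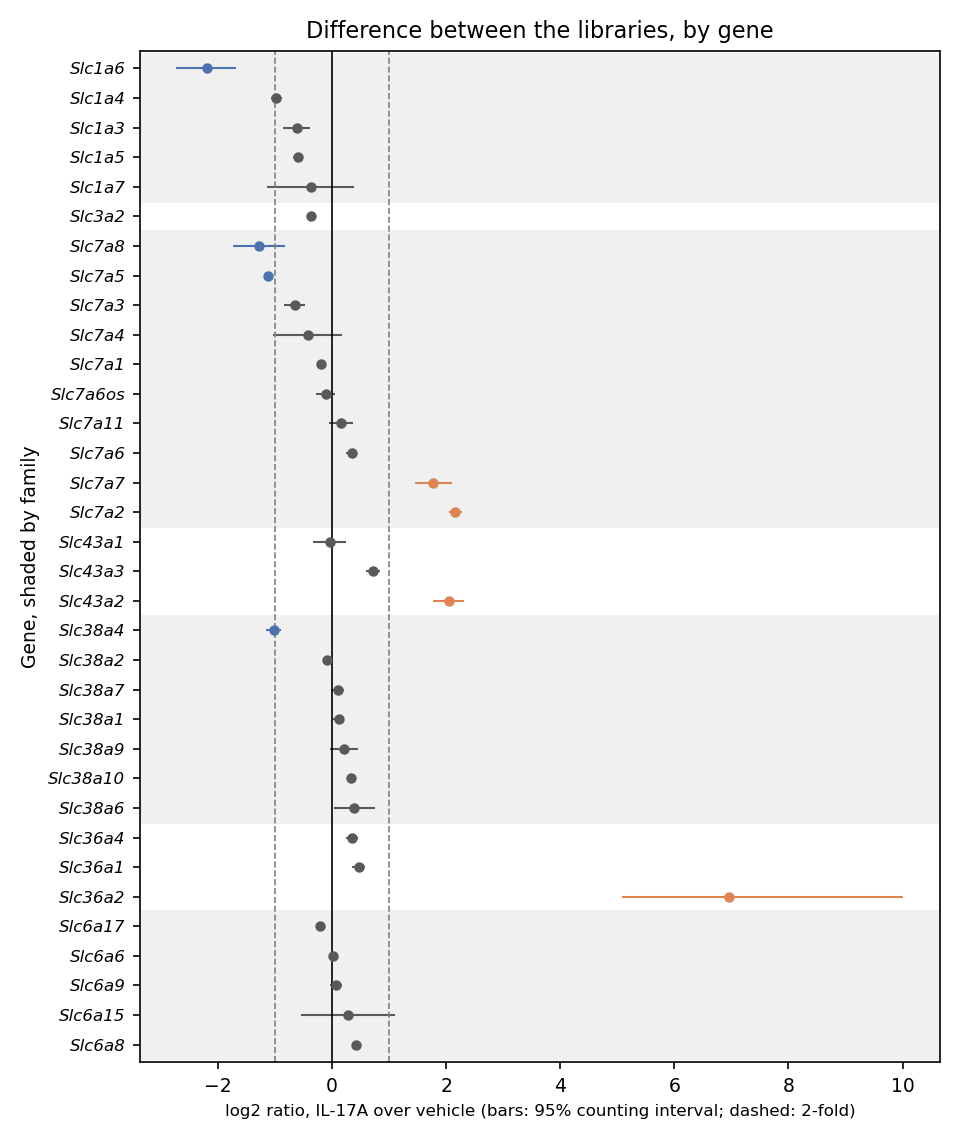
Log2 ratio of IL-17A over vehicle for each measured gene, with the 95% counting interval as bars, families shaded in turn and dashed lines at 2-fold. Orange genes are at least 2-fold higher, blue ones at least 2-fold lower, and all 5 Slc1 genes lie left of 0.

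The members nearest the minimum of 50 counts were Slc6a15 with 55 counts and Slc1a7 with 65 inside it, and Slc6a7 with 43 and Slc6a12 with 39 outside it. Slc6a7, a proline carrier, had 42 and 1 counts, 38.6-fold lower with a 95% counting interval of 6.57 to 1562. Of the 12 genes under the minimum, 7 were Slc6 genes. The others were Slc1a1 with 2 and 0 counts, Slc1a2 with 13 and 14, Slc3a1 with 8 and 2, Slc7a10 with 3 and 0, and Slc38a3 with 0 in both. A count of 0 allows up to 3 counts, or 0.123 and 0.127 CPM of the unscaled totals of vehicle and IL-17A.

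Promoters were searched in the 250 bases before each RefSeq start site on GRCm38.p6, which were given for 23 of the 34 genes in 35 windows. These 23 were 2 of the 4 higher genes, 3 of the 4 lower ones and 18 of the 26 within 2-fold. Slc7a2, Slc36a2 and Slc7a5 were not among them. The motifs were the kB site bound by NF-kB, the amino acid response element TGATGNAA bound by ATF4 with a C/EBP partner, the AP-1 site TGANTCA and the C/EBP site TTGCNNAA, on both strands. They were held by 7.25%, 3.45%, 6.75% and 9.56% of all 32851 windows. A kB match stood in 4 of the 35 windows (11.4%), before 3 of the 23 genes, of which 2 were higher with IL-17A, 1 was lower and 0 were within 2-fold. The matching windows of Slc7a7 overlap and hold the same site, which this share thus counts more than once. The 24-base stretches around the matches are shown because they differ in the direction of the gene, with the match in capitals, 5′ to 3′ on the strand of the gene.
Slc43a2, higher, chr11:75531461-75531484, plus strand: gggtcgaGGGGCACTCCagtttaa
Slc7a7, higher, chr14:54417810-54417833, minus strand: tgcccctGGGACTTCCCggcctgg
Slc1a6, lower, chr10:78780403-78780426, plus strand: cggcaggGGGACATCCCcgagggg
The match began 226 bases before a start of Slc43a2, 124 and 147 bases before a pair of alternative starts of Slc7a7, and 86 bases before that of Slc1a6. All 250 bases of the matching Slc43a2 window lie in annotated exons, and the window of its other start held no match. The windows of the other Slc7a7 starts held no kB match. The same motif thus stood before genes that were higher and before one that was lower.

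The amino acid response element was found in 3 of the 35 windows (8.57%), before 2 of the 23 genes, Slc7a11 and Slc7a7. Slc7a11 had it 66 bases before the start on the gene's strand and 47 bases before it on the other, both in capitals in its window, shown because this gene is a textbook ATF4 target and was close to level here.
Slc7a11, chr3:50443614-50443863, minus strand: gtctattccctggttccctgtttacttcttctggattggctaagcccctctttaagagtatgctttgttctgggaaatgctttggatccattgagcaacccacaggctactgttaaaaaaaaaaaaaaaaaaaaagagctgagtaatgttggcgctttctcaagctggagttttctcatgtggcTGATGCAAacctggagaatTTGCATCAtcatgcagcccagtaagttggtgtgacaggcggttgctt
AP-1 matches stood before 4 of the 23 genes and C/EBP matches before 5. A match is a run of letters and not a measured site.

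Related genes were described in 5 lists. Of 26 measured genes of the amino acid response, which the kinase Gcn2 and the factor ATF4 drive when amino acids are short, 2 were lower and 0 higher, the median was -0.22 and 20 of 26 below 0. As shares these are 7.69% lower and 0% higher, beside 3.69% and 5.19% over all measured genes. Of all 13534 measured genes, 6732 stood below 0. The lower genes were Trib3, a pseudokinase that restrains ATF4, from 4099 to 1823 counts and 2.07-fold lower, and the stress hormone Gdf15, from 188 to 70 counts and 2.47-fold lower. Atf4 itself stood at -0.00, from 10398 to 9535 counts. Of 30 measured genes of amino acid sensing upstream of mTORC1, 0 were past 2-fold, beside 8.88% over all measured genes, and the median was 0.05. The largest differences were those of Sesn3, a sestrin, at -0.77 and the folliculin partner Fnip2 at 0.62.

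Of 43 measured enzymes that use amino acids, 3 were higher and 1 was lower, and the median was -0.10. As shares these are 6.98% and 2.33%, near those of all measured genes. Nos2, the inducible nitric oxide synthase, had 2 and 451 counts, 245-fold higher with a 95% counting interval of 67.5 to 2030. Ass1, which remakes arginine from citrulline by way of argininosuccinate, went from 1113 to 7070 counts and was 6.90-fold higher (95% counting interval 6.48 to 7.36). Prodh, the first enzyme of proline breakdown, had 32 and 63 counts and was 2.14-fold higher. Its 95% counting interval of 1.38 to 3.38 reached inside 2-fold. The glycine-cleaving enzyme Gldc had 55 and 5 counts and was 10.1-fold lower (95% counting interval 4.08 to 32.4).

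Of 17 other measured carriers of amino acids or peptides, 2 were higher and 0 were lower, and the median was 0.03. As shares these are 11.8% and 0%, beside 5.19% and 3.69% over all measured genes. Slc15a3, a lysosomal carrier of histidine and small peptides, had 75 and 1223 counts and was 17.7-fold higher, or 4.15 on the log2 scale (95% counting interval 3.81 to 4.50). Slc16a10, the aromatic amino acid carrier TAT1, had 345 and 779 counts and was 2.45-fold higher. Of 12 measured partners and surface regulators of carriers, 0 were past 2-fold, beside 8.88% over all measured genes, and the median was 0.22. The kinase Sgk1, which acts on several carriers, stood at 0.75 and Arl6ip5, a partner of glutamate carriers, at 0.58.

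**Figure D5:**
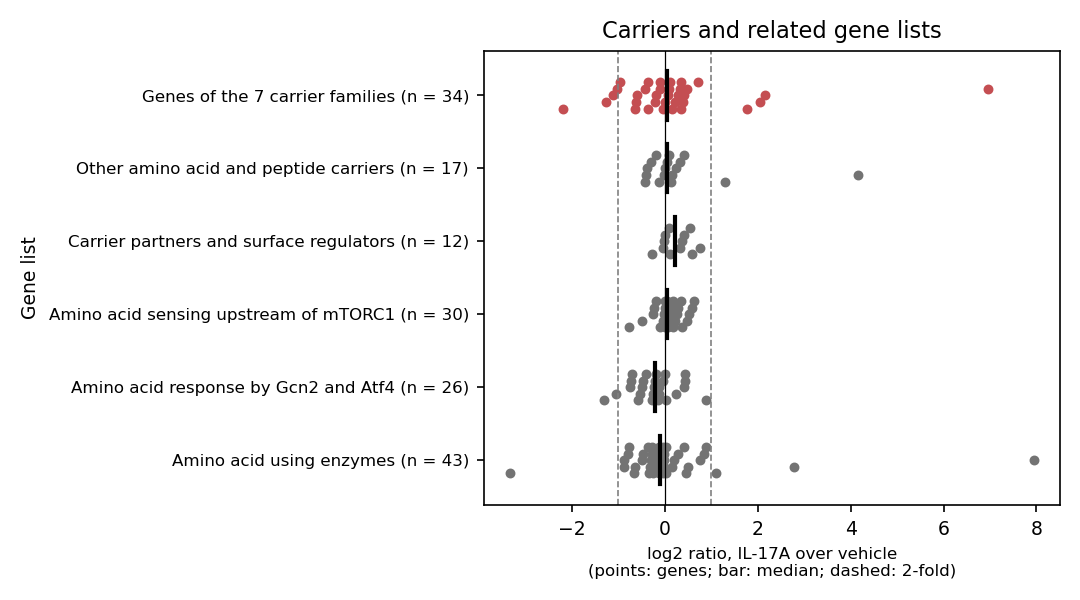
Log2 ratio of IL-17A over vehicle for the 34 genes of the carrier families in red and the measured genes of 5 related lists in grey, with each list's median as a bar and dashed lines at 2-fold. The medians run from -0.22 for the amino acid response to 0.22 for carrier partners.

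Several values rest on how reads were assigned. Without a stated strand setting, genes that overlap another on the opposite strand are uncertain. Among the 8 genes past 2-fold these are Slc7a5, Slc7a2, Slc43a2 and Slc7a7. Slc7a7 shares 232 bases with Oxa1l, which had 1346 and 1185 counts, and Slc43a2 shares 1378 bases with an antisense gene that had 1 and 6 counts. The largest overlap is that of Slc7a5, whose whole annotated span of 26545 bases lies opposite the protein-coding gene Gm20388, and Slc7a2 shares 3252 bases with the noncoding gene Gm26584. The deposited counts hold no row for Gm20388 or Gm26584.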

How the data were processed

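Gene counts are whole numbers that the authors deposited without normalization, 1 column for each library. STAR, featureCounts and mm10 are named in the submitters' processing notes, and for their versions, the annotation and the strand setting the sources used here give nothing. Per the labels' protocols, a PureLink kit gave the RNA and a stranded mRNA kit the libraries.

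TMM scaling (edgeR 4.0.16, R 4.3.3) set the library sizes. Ratios compare IL-17A with vehicle for genes of at least 50 summed counts, and their 95% intervals are exact Clopper-Pearson intervals computed with scipy 1.17.1. No molecular identifiers are named, so PCR copies may count as separate molecules, and intervals cover counting error only. A size rule of 2-fold replaced a test, since 1 library per group leaves none. Levels per kb used the longest transcript in GENCODE M21. Calculations were tested on simulated data. Every member was described, with full values for those past 1.5-fold or among the 6 highest per length. From each related list, up to 6 genes past 2-fold were named, or otherwise the 2 with the largest ratio. Atf4 and the Slc6 genes under the minimum were named after their values were seen. The members, the related and marker lists, the role groups and the motifs were chosen with earlier results of these data known. Alternatives were 3 other scalings, 3 other minimums, 1.5-fold and 3-fold rules, and a prior count of 2.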

Additional observations from a re-analysis of the deposited data

How the results depend on the processing

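No paired analysis was possible because each group held 1 library. The higher genes of the carrier families numbered 6 with no minimum, 5 at 1.5-fold and 4 under every other alternative. The lower genes numbered 4 to 6 under the other scalings, minimums and the prior count, 8 at 1.5-fold and 1 at 3-fold. Their median log2 ratio was -0.03 with total counts and 0.00 to 0.08 otherwise, so it has no firm sign. Over all genes, those higher and lower numbered 1364 and 1117 at 1.5-fold, 340 and 219 at 3-fold, 1090 and 955 with a minimum of 10, and 1573 and 1335 with none. Counts with no minimum include such replaced ratios. A minimum of 200 left 275 lower. Total-count scaling lowered every log2 ratio by 0.07, the largest shift of the 3 scalings, which put 7 of the 34 single ratios outside their counting intervals and turned that of Slc6a6 to -0.06. None of the 8 genes past 2-fold changed sign under any scaling or the prior count. A level per coding length of the RefSeq protein was not run, and the longest coding length in GENCODE, chosen after seeing the data, took its place. The myeloid sum without Lyz2 was also chosen after seeing the data. Depth limits Slc36a2, Slc1a7, Slc6a15 and Slc7a4 most, and variation between cultures was not measured.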
